A study of Arabidopsis thaliana with 8 samples.

Results

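*MYB24* and *MYB108* encode R2R3-MYB transcription factors of late stamen development, and they were followed across 4 groups of transgenic *Arabidopsis thaliana* inflorescences. Each gene was read by 1 probe set of the Affymetrix ATH1 array, 249349_at for *MYB24* (AT5G40350, on chromosome 5) and 258516_at for *MYB108* (AT3G06490, on chromosome 3), so the pair makes up 2 of the 22746 probe sets left after the control probe sets had been removed, and 2 of the 13777 genes named here. Neither probe set is named in the platform's gene table. Both were named through the study's own lists of genes altered by *IaTCP1* or *TCP1*, which were drawn up from these same arrays. The genes were thus selected on their change against the empty vector here, and their levels are given as a description, without a test. Their sequences are not analysed here.

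Stamens of *Arabidopsis* mature late in flower development, when filaments elongate, anthers open and pollen becomes able to germinate. Jasmonate, whose synthesis is promoted by gibberellin, releases MYB factors from JAZ repressors, and *MYB21*, *MYB24* and *MYB57* act redundantly in this step. *MYB108* is a further jasmonate-responsive factor, which acts in anther opening and pollen viability and lies downstream of *MYB21*.

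The transgenic plants were T2 plants of the Columbia accession that carried *IaTCP1* of the crucifer *Iberis amara*, the endogenous *TCP1* gene or *CYC* (*CYCLOIDEA*) of *Antirrhinum majus*. All of them are CYC2 genes, a clade of TCP transcription factors that acts in floral symmetry, and all were driven by the CaMV 35S promoter, which is active in nearly all tissues and not only in stamens. Plants transformed with the empty pBAR vector served as the control. RNA came from secondary inflorescences with all flowers before anthesis, and each group had 2 arrays. The study's methods call the RNA samples of a transgenic T2 line technical samples, so that the spread between the 2 arrays of a group does not cover differences between lines. Values are log2 intensities after robust multi-array averaging (RMA), in which a difference of 1 is a 2-fold difference. Array medians lay between 6.48 and 6.56, and the 2 arrays of a group correlated with r between 0.9967 and 0.9981 across probe sets.

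Transcripts of *MYB24* were less abundant in all 3 kinds of transgenic plants than in empty-vector plants. The log2 level of *MYB24* was 5.70 and 5.58 on the 35S::IaTCP1 arrays, 7.43 and 7.23 on the 35S::TCP1 arrays, 7.90 and 7.84 on the 35S::CYC arrays, and 8.60 and 8.64 on the empty-vector arrays. The 4 groups did not overlap, and the largest difference between 2 arrays of a group was 0.20, in 35S::TCP1 plants. Group means were 5.64 ± 0.08 in 35S::IaTCP1, 7.33 ± 0.14 in 35S::TCP1, 7.87 ± 0.04 in 35S::CYC and 8.62 ± 0.03 in empty-vector inflorescences (SD, n = 2 arrays each). Against the empty vector, the log2 difference of *MYB24* was -2.98 with *IaTCP1*, -1.29 with *TCP1* and -0.74 with *CYC*, each with a standard error of 0.10. The *MYB24* signal thus stood at 12.7% of the empty-vector level in 35S::IaTCP1, 40.9% in 35S::TCP1 and 59.7% in 35S::CYC inflorescences. Whole inflorescences were sampled, so fewer cells of a type and less RNA per cell cannot be told apart here.

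*MYB108* took the same order of groups. Its log2 level was 4.89 and 4.95 on the 35S::IaTCP1 arrays, 5.30 and 5.64 on the 35S::TCP1 arrays, 6.03 and 6.29 on the 35S::CYC arrays, and 6.94 and 7.03 on the empty-vector arrays. Again no group overlapped with its neighbour, although arrays of a group lay up to 0.34 apart, the largest gap again being in 35S::TCP1 plants. The group means were 4.92 ± 0.05 in 35S::IaTCP1, 5.47 ± 0.24 in 35S::TCP1, 6.16 ± 0.19 in 35S::CYC and 6.99 ± 0.06 in empty-vector inflorescences (SD, n = 2 arrays each). The log2 difference from the empty vector was -2.07 with *IaTCP1*, -1.52 with *TCP1* and -0.83 with *CYC*, each with a standard error of 0.12. This left 23.9% of the empty-vector signal in 35S::IaTCP1, 35% in 35S::TCP1 and 56.2% in 35S::CYC inflorescences.

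**Figure D1:**
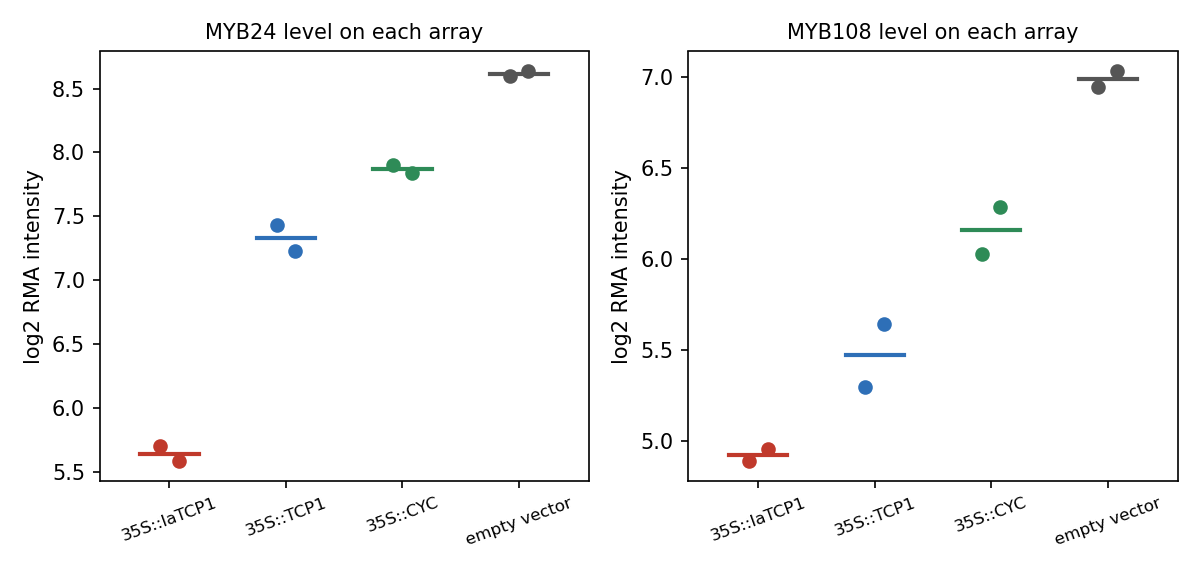
Log2 RMA intensity of MYB24 (left) and MYB108 (right) on each of the 8 arrays, with 2 points and a bar for the mean in each group; each panel has its own vertical axis. In both genes 35S::IaTCP1 lies lowest (means 5.64 and 4.92), 35S::TCP1 and 35S::CYC lie between, and the empty vector lies highest (means 8.62 and 6.99), without overlap between groups.

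Of all 22746 probe sets, 383 (1.68%) had the order *IaTCP1*, *TCP1*, *CYC*, empty vector from low to high with no overlap of neighbouring groups. Both members belong to these. They were chosen for being low with *IaTCP1* or *TCP1*, which favours such an order, so that it is no independent evidence. The choice does not by itself fix the order among the transgenes. Both arrays of the transgenic group lay below both empty-vector arrays for 23.4% of all probe sets with *IaTCP1*, 24.7% with *TCP1* and 28.1% with *CYC*. Below, rising and falling are used of transcripts that differed 2-fold or more and had an adjusted p not above 0.05 (Benjamini-Hochberg) in limma, a linear model fitted over all probe sets. By this measure 2.35% of probe sets fell for *IaTCP1*, 1.25% for *TCP1* and 1.55% for *CYC*. Both *MYB* genes met it for *IaTCP1* and *TCP1*, the comparisons that had put them on the study's lists. For *CYC*, their differences of -0.74 and -0.83 (1.67-fold and 1.78-fold lower) lay outside the 2-fold limit. The smallest difference inside it was the -1.29 of *MYB24* for *TCP1*.

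The differences of *MYB24* and *MYB108* lay furthest apart in 35S::IaTCP1 plants. There *MYB108*, at a mean of 4.92, was below the log2 value of 5 that served as the limit for dim probe sets, and whether dimness limits its difference, percentage and rank for *IaTCP1* was not tested. Ranked from the most reduced probe set, *MYB24* was number 4 for *IaTCP1*, number 102 for *TCP1* and number 693 for *CYC*. *MYB108* was number 86 for *IaTCP1*, number 45 for *TCP1* and number 553 for *CYC*. The log2 difference of *MYB24* was thus 0.91 further below zero than that of *MYB108* for *IaTCP1* (a gap of -0.91), while the gap was 0.23 for *TCP1* and 0.09 for *CYC*. Expressed as a share of the *IaTCP1* difference on the log2 scale, *TCP1* reached 43.3% for *MYB24* and 73.4% for *MYB108*, and *CYC* reached 25% for *MYB24* and 40.2% for *MYB108*. The 3 comparisons share the empty-vector arrays, so these values stand side by side and are not independent of each other.

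Direct comparison of the transgenes leaves the empty-vector arrays out. *MYB24* was 3.22-fold lower with *IaTCP1* than with *TCP1*, a log2 difference of -1.69 (standard error 0.10), which placed it at number 6 among the most reduced probe sets of this comparison. There, 0.343% of all probe sets were called lower. *MYB108* was 1.46-fold lower in the same comparison (log2 difference -0.55, standard error 0.12), and its nearest arrays were 4.95 with *IaTCP1* and 5.30 with *TCP1*. Both *IaTCP1* arrays lay below both *TCP1* arrays in 20.9% of all probe sets. Set against *CYC*, *IaTCP1* gave a log2 difference of -2.23 for *MYB24* and of -1.23 for *MYB108*, in a comparison with 1.97% of probe sets called lower. Between *TCP1* and *CYC* the log2 differences were smaller, at -0.55 for *MYB24* and -0.69 for *MYB108*, and 1.38% of probe sets were called lower.

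*MYB21*, the closest partner of *MYB24* in stamen maturation, was the other listed MYB gene of this kind with a named probe set. *MYB57* and the relatives of *MYB108* in its subgroup are not analysed here. The log2 level of *MYB21* on probe set 257220_at was 9.07 and 9.08 on the 35S::IaTCP1 arrays, 10.07 and 10.15 on the 35S::TCP1 arrays, 10.28 and 10.32 on the 35S::CYC arrays, and 10.41 and 10.48 on the empty-vector arrays. Here 35S::IaTCP1 stood apart from the other 3 groups. The log2 difference from the empty vector was -1.37 with *IaTCP1*, -0.33 with *TCP1* and -0.14 with *CYC*, each with a standard error of 0.08. The other probe set, 258237_at, gave -1.41 with *IaTCP1*, -0.43 with *TCP1* and -0.18 with *CYC*, each with a standard error of 0.10. *MYB21* therefore fell for *IaTCP1* on both probe sets, and was not called for *TCP1* or *CYC* on either. In the direct comparison with *TCP1*, probe set 257220_at was lower with *IaTCP1* (log2 difference -1.04, adjusted p = 1.31e-05 from limma), whereas 258237_at, at -0.98, lay outside the 2-fold limit. *MYB21* too was named only by the study's lists, so that its fall is no independent evidence.

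**Figure D2:**
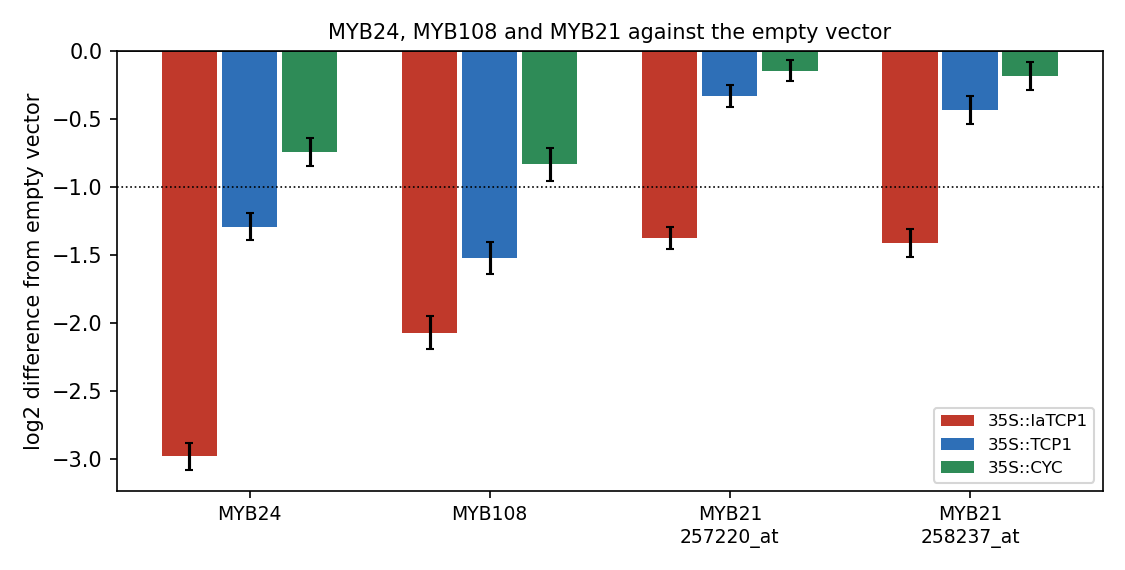
Log2 difference from the empty vector of MYB24, MYB108 and the 2 probe sets of MYB21 in 35S::IaTCP1 (red), 35S::TCP1 (blue) and 35S::CYC (green) inflorescences; bars are differences of group means (2 arrays each), error bars their standard error in the limma fit, and the dotted line a 2-fold reduction. MYB24 and MYB108 pass the line for IaTCP1 and TCP1 (-1.29 and -1.52 for TCP1), whereas MYB21 passes it for IaTCP1 alone (-1.37 and -1.41).

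Around the MYB factors, genes of jasmonate synthesis, perception and repression and of the gibberellin pathway were examined, along with jasmonate-induced markers, stamen regulators and genes downstream of *MYB21* and *MYB24*. Of the probe sets in these lists, 16 are named by the platform's table. Among these, 1 rose and 1 fell for *IaTCP1* (3.32% of all probe sets were called in either direction), 1 rose and none fell for *TCP1* (1.91% called), and 1 rose and 2 fell for *CYC* (3.08% called). Their median log2 difference was -0.25 for *IaTCP1*, -0.25 for *TCP1* and -0.07 for *CYC*, beside medians of 0.05, 0.03 and 0.02 over all probe sets. A further 7 probe sets, the 2 of *MYB21* described above and those of *LOX4*, *JAZ5*, *JAZ10*, *TAT3* and *GA20OX2*, are named only by the study's lists, which select for change. Of these, *TAT3* rose and the other 6 fell for *IaTCP1*, the 2 *JAZ* genes fell for *TCP1*, and *JAZ5* fell for *CYC*. Calls among the 16 platform-named probe sets are no independent evidence either. The lists were chosen with earlier results of these data known. *GID1B* and *AMS*, for example, are among the genes that the paper reports as changed on these arrays.

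In jasmonate synthesis, *LOX4*, a 13-lipoxygenase, fell for *IaTCP1* with a log2 difference of -1.04 and had -0.56 for *TCP1* and -0.46 for *CYC*. *OPCL1*, which activates jasmonate precursors for beta-oxidation, had log2 differences of -0.27 for *IaTCP1*, -0.67 for *TCP1* and -0.04 for *CYC*, none beyond 2-fold. Among the JAZ repressors, which are themselves induced by jasmonate, *JAZ10* fell for *IaTCP1* (log2 difference -1.39) and *TCP1* (-1.10) and had -0.82 for *CYC*. *JAZ5* fell for all 3 transgenes, by log2 differences of -1.04 for *IaTCP1*, -1.15 for *TCP1* and -1.30 for *CYC*. Its log2 levels were 7.76 and 7.99 in 35S::IaTCP1, 7.73 and 7.80 in 35S::TCP1, 7.59 and 7.65 in 35S::CYC and 8.87 and 8.96 in empty-vector inflorescences, so that *CYC* did not take the intermediate place it took for the *MYB* genes. *LOX4*, *JAZ5* and *JAZ10* were named by the study's lists only. The calls of *LOX4* and *JAZ5* for *IaTCP1* lay at the 2-fold limit: without the empty-vector array 2 their log2 differences were -1.0 and -0.99 and no longer met it, and without 35S::IaTCP1 array 1 that of *JAZ5* was -0.92.

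The bHLH activators *MYC3* and *MYC4*, which JAZ proteins repress, stayed between -0.36 and -0.05 on the log2 scale for all transgenes and were not called. Jasmonate-induced marker genes did not share 1 direction. *TAT3*, a tyrosine aminotransferase gene and classic jasmonate marker, rose for *IaTCP1* with a log2 difference of 1.53 and had 0.04 for *TCP1* and 0.27 for *CYC*. *PDF1.2*, a defensin gene, had 0.35, 0.21 and 0.12 for *IaTCP1*, *TCP1* and *CYC*, and was not called. It was dim in every group, with means between 4.35 and 4.69. *THI2.1*, a thionin gene, had -0.36, -0.17 and 0.78 for the same transgenes, and was lower with *IaTCP1* than with *CYC* (log2 difference -1.15, adjusted p = 8.76e-07 from limma).

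Of the gibberellin genes, *GA20OX2*, a biosynthetic oxidase, fell for *IaTCP1* (log2 difference -1.23) and had -0.76 for *TCP1* and -0.90 for *CYC*. The receptor gene *GID1B* moved the other way. Its log2 level was 6.58 and 5.84 in 35S::IaTCP1, 5.95 and 5.83 in 35S::TCP1, 5.78 and 5.33 in 35S::CYC and 4.89 and 4.68 in empty-vector inflorescences, with no overlap between transgenic and empty-vector arrays. Both transgenic arrays lay above both empty-vector arrays in 35.6% of all probe sets for *IaTCP1*, 32.4% for *TCP1* and 32.9% for *CYC*. *GID1B* rose for *IaTCP1* (log2 difference 1.42, standard error 0.20, adjusted p = 0.000232 from limma) and for *TCP1* (1.10, adjusted p = 0.00234), and had 0.77 for *CYC*. Without the empty-vector array 2 the rise for *TCP1* came to 1.0 and was lost. The receptors *GID1A* and *GID1C* and the F-box gene *SLY1* lay between -0.39 and 0.07 on the log2 scale for all transgenes.

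Of 22 listed stamen and anther regulators, 5 early regulators of the anther had a named probe set. None of the 5 was called for *IaTCP1* or *TCP1*, and *AMS* and *BHLH91* were called for *CYC*. Of all probe sets, 3.32% were called for *IaTCP1*, 1.91% for *TCP1* and 3.08% for *CYC*, so no call among 5 says little. For each transgene, 4 of the 5 lay below the empty vector. Their median log2 difference was -0.38 for *IaTCP1*, -0.44 for *TCP1* and -0.43 for *CYC*. *AMS*, a bHLH factor of the tapetum, had log2 levels of 8.26 and 8.40 in 35S::IaTCP1, 8.15 and 8.23 in 35S::TCP1, 7.08 and 7.10 in 35S::CYC and 9.0 and 8.79 in empty-vector inflorescences. It was lowest with *CYC*, the transgene with which *MYB24* and *MYB108* were least reduced. *AMS* fell for *CYC* alone (log2 difference -1.81, standard error 0.10, adjusted p = 7.63e-08 from limma). For *IaTCP1* (-0.57, adjusted p = 0.0011 from limma) and *TCP1* (-0.71, adjusted p = 0.000285 from limma) it was also lower, but by less than 2-fold. *AMS* was higher with *IaTCP1* than with *CYC* (1.24, adjusted p = 1.77e-06 from limma) and with *TCP1* than with *CYC* (1.10, adjusted p = 7.83e-06 from limma). *BHLH91*, a further bHLH gene of the anther, fell for *CYC* by a log2 difference of -1.01, a call at the limit that was lost after median centring (-0.99), after quantile normalization (-0.96), without empty-vector array 1 (-0.95) and without 35S::CYC array 1 (-0.90). *SPL*, *EMS1* and *BHLH89* had log2 differences between -0.44 and 0.08 and were not called.

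Downstream of *MYB21* and *MYB24*, *SWEET9*, a sugar transporter gene of nectaries, went in opposite directions. Its log2 level was 5.24 and 5.34 in 35S::IaTCP1, 6.89 and 6.89 in 35S::TCP1, 8.76 and 8.75 in 35S::CYC and 6.5 and 6.79 in empty-vector inflorescences. The 35S::IaTCP1 arrays lay below and the 35S::CYC arrays above all others. *SWEET9* fell for *IaTCP1* (log2 difference -1.36, standard error 0.10, adjusted p = 9.64e-07 from limma) and rose for *CYC* (2.1, adjusted p = 3.53e-08), with 0.24 for *TCP1* (adjusted p = 0.143). Like *MYB24* it was lower with *IaTCP1* than with *TCP1* (log2 difference -1.60) and than with *CYC* (-3.47). Between the transgenes, *SWEET9* was the only one of the 16 platform-named probe sets called for *IaTCP1* against *TCP1* (0.642% of all probe sets called). Against *CYC*, *IaTCP1* gave calls for *SWEET9* and *THI2.1* (lower) and *AMS* (higher), with 2.72% of all probe sets called, and *TCP1* for *SWEET9* (lower) and *AMS* (higher), with 1.99% called. *TPS11*, a terpene synthase gene of flowers, had -0.28, -0.29 and 0.69 for *IaTCP1*, *TCP1* and *CYC*, none beyond 2-fold.

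**Figure D3:**
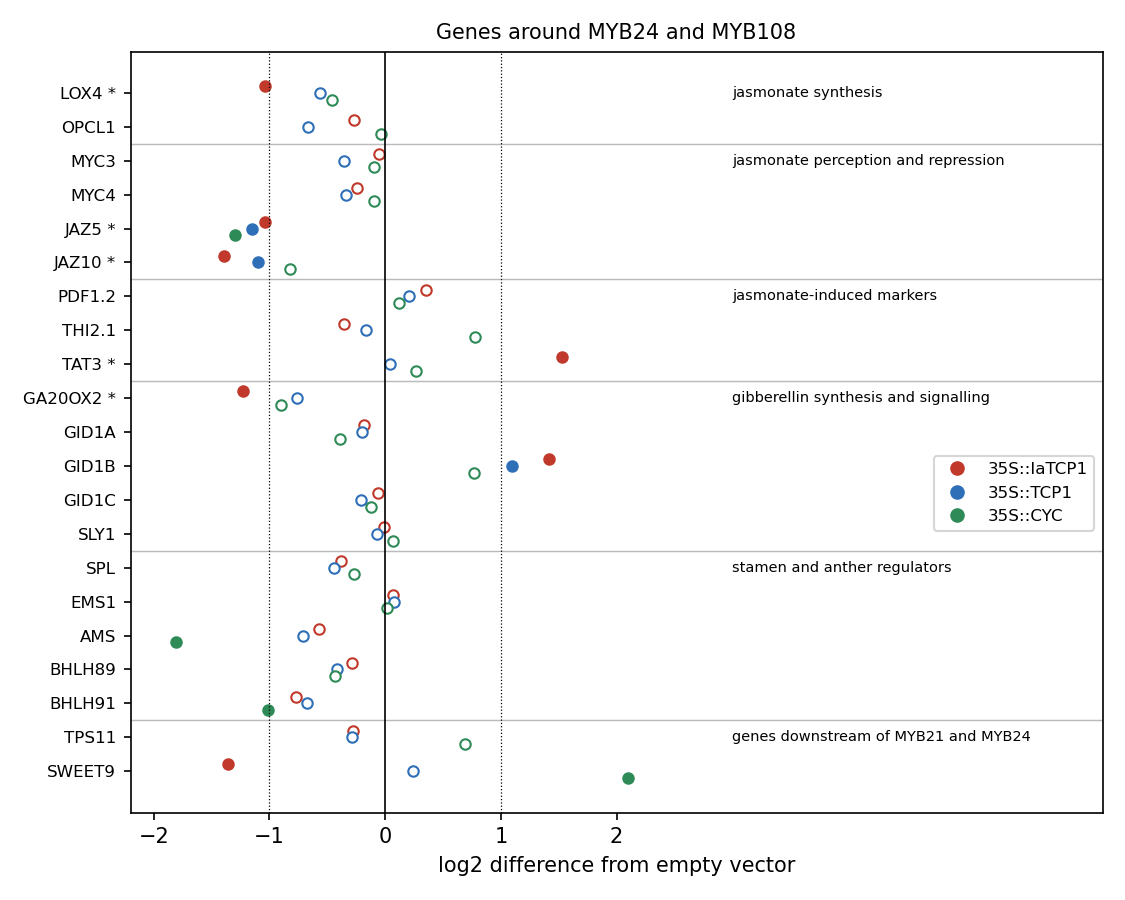
Log2 difference from the empty vector of the 21 listed probe sets with a named gene around MYB24 and MYB108 (without MYB21), one row per gene, for 35S::IaTCP1 (red), 35S::TCP1 (blue) and 35S::CYC (green). Filled points passed the 2-fold limit and the adjusted p, dotted lines mark 2-fold, and an asterisk marks genes named only by the study's lists; AMS and BHLH91 are filled for CYC alone, and SWEET9 is filled on the left for IaTCP1 (-1.36) and on the right for CYC (2.1).

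Both members carry the annotation "response to jasmonic acid" in the study's table of gene ontology terms. That table holds 14 further genes with this term, measured by 15 probe sets, all taken up because they differed with *IaTCP1*. With *IaTCP1*, 4 of these probe sets rose and 11 fell (median log2 difference -1.37, beside 0.05 over all probe sets, of which 3.32% were called). With *TCP1*, 2 rose and 6 fell (median -0.74, beside 0.03 over all probe sets, of which 1.91% were called). With *CYC*, 3 rose and 4 fell (median -0.34, beside 0.02 over all probe sets, of which 3.08% were called). As these genes were listed for their change on these arrays, such shares are no independent evidence. The transcription factor gene *NAC019* had log2 levels of 8.36 and 8.25 in 35S::IaTCP1, 9.36 and 9.27 in 35S::TCP1, 9.64 and 9.52 in 35S::CYC and 10.37 and 10.41 in empty-vector inflorescences. These groups were ordered as those of *MYB24*, again without overlap.

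The terpene synthase genes *TPS10* and *TPS03* fell for *IaTCP1* (log2 differences -2.50 and -1.82) and *TCP1* (-1.67 and -1.77), and had -0.34 and -0.58 for *CYC*. *BCB*, a blue copper protein gene, and AT4G24380 also fell for *IaTCP1* and *TCP1* but not for *CYC*. *JMT*, which methylates jasmonate, fell for *IaTCP1* (log2 difference -1.08) and *CYC* (-1.61), with -0.71 for *TCP1*. *ST2A*, a sulfotransferase gene that acts on hydroxyjasmonate, fell for *IaTCP1* (-1.49) and *CYC* (-1.02), as did *GATL2*, and *BAT5* fell for all 3 transgenes. *BSMT1*, a methyltransferase of benzoate and salicylate, and *MYB34*, a regulator of indole glucosinolates, rose for all 3 transgenes. *RVE1*, a clock-related MYB-like factor, rose for *IaTCP1* and *CYC*, with 0.99 for *TCP1*.

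Besides the pair, 10 probe sets are assigned to the MYB family in the functional categories of the study's lists, *MYB21* included. For *IaTCP1*, *MYB10* rose and the 2 *MYB21* probe sets fell. For *TCP1*, *MYB10* and *MYB25* rose and none fell. For *CYC*, *MYBR1*, *MYB10*, *MYB20* and *MYB13* rose and *MYB50*, *MYB105* and *MYB117* fell. Over all probe sets, 3.32% were called for *IaTCP1*, 1.91% for *TCP1* and 3.08% for *CYC*, but these 10 come from lists of changed genes, which fixes a high count. Their names were picked after their values had been seen.

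Markers of the organs and cells in the inflorescence were set beside the members. Of 11 pollen and pollen tube markers, 6 are named by the platform's table, and of these none was called for *IaTCP1* or *TCP1* and *TUA1* rose for *CYC*. In either direction, 3.32% of all probe sets were called for *IaTCP1*, 1.91% for *TCP1* and 3.08% for *CYC*. The median log2 difference of the 6 was -0.19 for *IaTCP1*, -0.23 for *TCP1* and -0.02 for *CYC*. The medians over all probe sets were 0.05, 0.03 and 0.02. The other 5, *VGDH2*, *PGA4*, *AGP6*, *PRK2A* and *CPK24*, named by the study's lists only, all fell for *IaTCP1*, and *AGP6* and *CPK24* fell for *TCP1*. Of all probe sets, 2.35% fell for *IaTCP1* and 1.25% for *TCP1*, but these 5 come from lists of changed genes, which fixes a high count. The mean log2 level of all 11 ranged over 6.04 to 6.06 in 35S::IaTCP1, 6.36 to 6.41 in 35S::TCP1, 6.98 to 6.98 in 35S::CYC and 6.92 to 7.01 in empty-vector inflorescences. The 2 subsets differed. The 6 platform-named markers averaged 5.44 to 5.48 in 35S::IaTCP1, 5.45 to 5.52 in 35S::TCP1, 5.79 to 5.82 in 35S::CYC and 5.60 to 5.70 in empty-vector inflorescences, so that 35S::CYC lay above the empty vector. The 5 markers selected for change averaged 6.76 to 6.76 in 35S::IaTCP1, 7.46 to 7.48 in 35S::TCP1, 8.38 to 8.41 in 35S::CYC and 8.50 to 8.57 in empty-vector inflorescences, the order of the *MYB* genes. *TUA1* had log2 differences of 0.86 for *IaTCP1* and 0.78 for *TCP1*, against the direction of the other markers, and 1.07 for *CYC*. The platform-named markers other than *TUA1* lay between -0.09 and 0.06 for *CYC*. The place of 35S::CYC above the empty vector in that subset thus rests on *TUA1*. Among the uncalled markers, *AGL104* had -0.99 for *IaTCP1* and -0.75 for *TCP1*. The part of pollen content in the levels of both genes was not tested.

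Tapetum markers, 6 probe sets, had mean log2 levels of 9.78 to 9.83 in 35S::IaTCP1, 9.67 to 9.67 in 35S::TCP1, 8.81 to 8.83 in 35S::CYC and 10.13 to 10.15 in empty-vector inflorescences. The only one named by the platform's table, *A9*, fell for *CYC* (log2 difference -1.81) and had -0.68 for *IaTCP1* and -0.83 for *TCP1*. The other 5 also fell for *CYC* and not for *IaTCP1* or *TCP1*, but they are named only by the study's lists of changed genes, so that their fall is no independent evidence. Of all probe sets, 1.55% fell for *CYC*. *AP1*, the only 1 of 6 listed floral meristem and perianth genes with a named probe set, fell for *CYC* (-1.40). It too is named only by the study's lists, so that its fall is no independent evidence. The carpel and ovule genes *INO* and *SPT*, named by the platform's table, were not called for any transgene. No marker was at zero on these arrays, since RMA values have no zero level.

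The genes whose levels ran most closely with those of *MYB24* and *MYB108* over the 8 arrays were sought among 1161 probe sets that name 1 gene and whose 4 group means span at least 1 on the log2 scale. The 2 members correlated with each other with r = 0.93, and 201 of the candidates had a higher r with *MYB24* than *MYB108* did, and 214 a higher r with *MYB108* than *MYB24* did. The points are 8 arrays in 4 groups, so that r here measures chiefly the likeness of group means. With *MYB24*, the highest r were those of *HMT3*, a homocysteine methyltransferase gene (0.996), the subtilase gene *SBT4.13* (0.995), AT1G04470 (0.993), AT5G02420 (0.992) and AT1G72290 (0.991). AT5G07420 (0.989), *NAC019*, *MDP40*, AT2G19000 and AT5G07430 (0.987 each) followed. AT5G07420 and AT5G07430 are annotated as pectin lyase-like proteins.

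With *MYB108*, the highest r were those of the expansin gene *EXPA24* (0.995), AT2G26490 and AT3G20530 (0.994 each), the early light-induced gene *ELIP2* (0.991), AT1G24620 and AT1G64800 (0.99 each). AT1G30795 (0.988), *IPP1*, an isopentenyl diphosphate isomerase gene, AT5G38320 (0.987 each) and *RIC1*, an effector of ROP GTPases (0.985), followed. No gene stood among the 10 highest r of both members, whereas by the root mean square difference *NRT1.5* was among the 10 closest of both. As chosen by r, these genes share the steps of their member by construction. *HMT3*, for example, had log2 differences from the empty vector of -2.35 for *IaTCP1* and -1.09 for *TCP1*, and *EXPA24* had -1.43 for *IaTCP1* and -1.05 for *TCP1*. Of the 10 highest, 8 for *MYB24* and 10 for *MYB108* are themselves in the study's lists. The 2 probe sets of *MYB21* came at places 26 and 48 for *MYB24* and at 340 and 357 for *MYB108*.

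**Figure D4:**
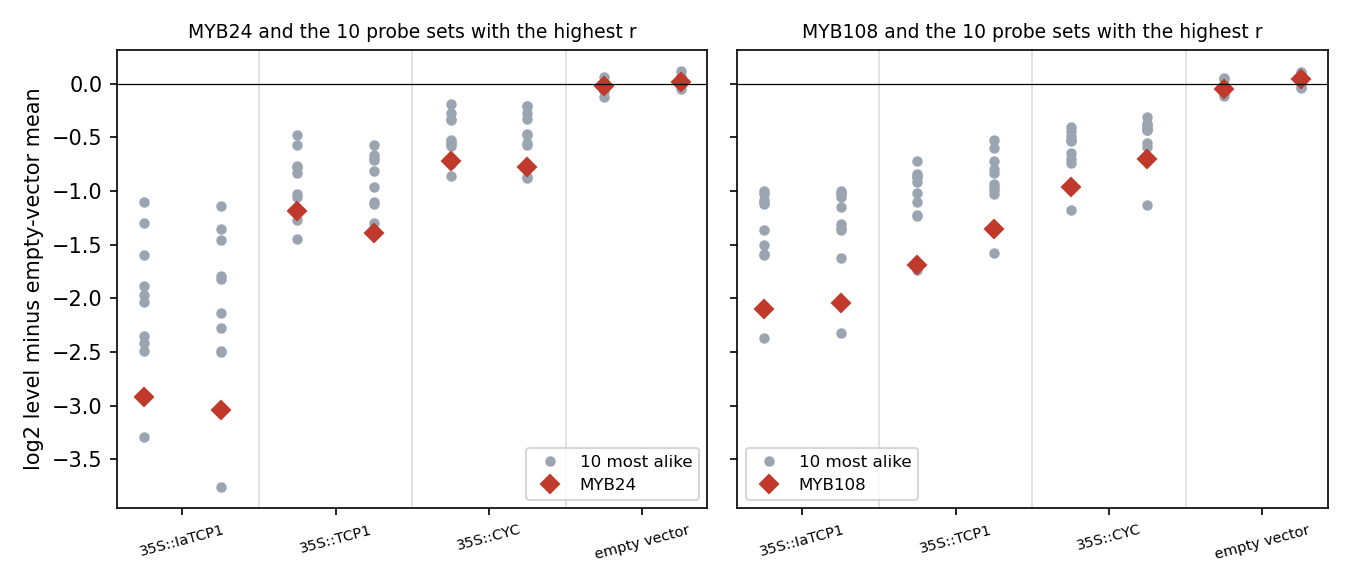
Log2 level minus the empty-vector mean on each array for MYB24 (left) and MYB108 (right, both as red diamonds) and for the 10 probe sets with the highest Pearson r with each (grey points, one per probe set); arrays run from 35S::IaTCP1 through 35S::TCP1 and 35S::CYC to the empty vector. On the left the points drop steeply towards 35S::IaTCP1 (MYB24 difference -2.98), and on the right the step between 35S::TCP1 and 35S::IaTCP1 is smaller (MYB108 differences -1.52 and -2.07).

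Few genes near the pair on their chromosomes could be read. AT5G40340, which adjoins *MYB24*, and *GRXC2*, the second gene on its other side, had log2 differences from the empty vector between -0.39 and 0.09 over the 3 transgenes. AT3G06480, the second gene from *MYB108*, lay between -0.06 and 0.13. None of these genes was called. *MYB115* on the other side of *MYB24*, and both genes directly beside *MYB108*, have no named probe set and are not analysed here. AT5G40348, a long non-coding RNA gene that overlaps *MYB24* in the annotation, was not analysed either.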

How the data were processed

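RNA of *Arabidopsis* inflorescences was hybridized to 8 ATH1 arrays, with 2 for each group. RMA was applied by the authors, with Partek named in the submitters' processing notes, and the log2 intensities they deposited, 1 per probe set and array, were used unchanged. Of 22810 probe sets, 64 controls were left out. Differences between groups and their standard errors came from limma 3.58.1 in R 4.3.3 (1 mean per group over all arrays, 4 residual and 7.9 prior degrees of freedom). Probe sets were called at 2-fold or more and an adjusted p not above 0.05 (Benjamini-Hochberg, within each comparison). The fit was tested on simulated data. Likeness was Pearson's r over the arrays.

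Of the probe sets, 13513 name 1 gene in the platform's table, 428 more are named only by the study's lists, and 503 name several genes. Of 133 listed genes besides the pair, 25 (18.8%) are named by the platform and 17 only by the study's lists. The members and lists were chosen with earlier results of these data known. Named are both members, MYB relatives, listed genes called against the empty vector (up to 6 a list), uncalled listed genes for comparison and the 10 most alike. Figures were drawn with matplotlib 3.10.9. The number of arrays limits the precision. Genes near the pair were found from gene coordinates in the reference gene annotation. Coordinates of probe sets were not used, since the build behind the array's annotation is not given in the sources used here.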

Additional observations from a re-analysis of the deposited data

How the results depend on the processing

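All differences of *MYB24* and *MYB108* from the empty vector kept their sign and their side of the 2-fold limit under median centring, quantile and cyclic loess normalization, the replicate block and each array left out. Over these normalizations the log2 difference of *MYB24* lay between -3.0 and -2.93 for *IaTCP1*, -1.28 and -1.25 for *TCP1* and -0.73 and -0.72 for *CYC*, and that of *MYB108* between -2.10 and -2.04, -1.53 and -1.48, and -0.82 and -0.81. With 1 array left out, *MYB24* ranged over -3.03 to -2.92, -1.39 to -1.19 and -0.77 to -0.71 and *MYB108* over -2.11 to -2.02, -1.69 to -1.34 and -0.96 to -0.70 for *IaTCP1*, *TCP1* and *CYC*, and the probe sets called over 756 to 784, 435 to 461 and 685 to 733. Of the platform-named listed probe sets, 2 to 2 were called for *IaTCP1*, 0 to 1 for *TCP1* and 2 to 3 for *CYC*; the 0 came without empty-vector array 2. Without a fold minimum, 4646, 3579 and 4671 probe sets passed the adjusted p for *IaTCP1*, *TCP1* and *CYC*, with 6, 6 and 9 listed ones, and 5 listed ones for *IaTCP1* against *CYC* and 5 for *TCP1* against *CYC*. For *IaTCP1* against *TCP1* the count of listed ones stayed at 1. The jasmonate-annotated probe sets that fell then numbered 11 for *TCP1* and 7 for *CYC*, and stayed at 11 for *IaTCP1*.

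Arrays of different groups share the replicate numbers 1 and 2, which the labels do not tie to a batch or day. Deviations of same-numbered arrays correlated with r of 0.16 to 0.52 over the 6 pairs of groups, across probe sets. With the replicate number as a block, 757 probe sets were called for *IaTCP1*, 437 for *TCP1* and 700 for *CYC*, the standard error was 0.08 for *MYB24* and 0.09 for *MYB108*, and the counts of listed probe sets stayed at 2, 1 and 3.

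By the root mean square difference instead of r, only 2 of the 10 genes most like *MYB24* and 1 of the 10 most like *MYB108* stayed among the 10; by construction this measure takes the size of the change into account, which r does not. *NRT1.5* is then among the 10 of both genes.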
